A study of Mus musculus with 8 samples.

Results

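The 10 genes Notch1, Notch2, Notch3, Jag1, Dll1, Rbpj, Hes1, Hey1, Heyl and Hes6, taken by symbol from a table of 24328 gene symbols, were followed across satellite cells, which are muscle stem cells lying beside the fibres. They comprise 3 receptors, 2 ligands, the DNA-binding factor of the pathway and 4 genes of the Hes and Hey families. All 10 were found and passed the filter on low values (1 FPKM or more in 2 or more libraries), as did 12515 symbols in all. FPKM are fragments scaled by transcript length and by the size of the library.

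RNA came from C57BL/6 mice aged 2 months, in 8 libraries forming 4 groups of 2. PFA-perfused cells came from Pax7-nGFP mice, which carry a nuclear GFP reporter for Pax7 expression, perfused with the fixative paraformaldehyde before the muscle was digested. PBS-perfused cells came from Pax7-nGFP mice perfused with buffer, so they were not fixed. Unperfused cells were those of wild type mice that had no perfusion. Injury-activated cells were those of unperfused wild type mice, 2.5 days after an injury that the labels do not describe. All groups were sorted for Vcam and against CD31, CD45 and Sca-1. Fixed cells had more collagenase in the digestion and an RNA kit for paraffin-embedded tissue, so that fixation, digestion and RNA kit cannot be told apart between PFA-perfused cells and the other groups. Genotype and perfusion cannot be told apart between either perfused group and the unperfused or the injury-activated group. Whether both libraries of a group stem from different mice is not stated, so the p-values reflect only how far these libraries scatter, which may be technical.

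Notch receptors are single-pass membrane proteins that are cut when a ligand on a neighbouring cell binds them. The freed intracellular domain enters the nucleus and joins Rbpj, which switches from a repressor to an activator of Hes and Hey genes, whose products repress transcription in turn. In muscle, Notch signalling keeps satellite cells quiescent and holds back myogenic differentiation, and loss of Rbpj in these cells leads to their depletion.

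Levels are FPKM, and differences are log2 differences of FPKM + 1 with their SE, from a linear model over the 8 libraries (limma, Benjamini-Hochberg adjustment over 12515 genes, call at adjusted p under 0.05, two-sided). Adding 1 understates the change of genes at low levels. Total FPKM ran from 461454 to 582336 per library, and the depth is unknown because the table gives no counts. Across genes, the log2 difference between both libraries of a group had an SD of 0.19 for injury-activated, 0.41 for PFA-perfused, 0.42 for unperfused and 0.50 for PBS-perfused cells. Rn45s, the ribosomal RNA precursor, took 0.0266 to 19.4% of total FPKM. Trimmed mean scaling, which sets the bulk of genes level between libraries, moved the median difference of all tested genes against PFA-perfused cells from -0.50 to 0.012 (PBS-perfused), from -0.81 to 0.087 (unperfused) and from -0.48 to 0.13 (injury-activated). It moved that median from -0.36 to 0.012 for unperfused against PBS-perfused and from 0.17 to -0.074 for injury-activated against unperfused cells. Values after this scaling are given where a call depends on it.

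Notch1 and Notch3 were highest in fixed and lowest in injury-activated cells, and Notch2 was highest in unperfused cells. Notch3, whose loss in mice is known to increase satellite cell numbers after repeated injury, stood at 433 and 386 FPKM (PFA-perfused), at 61.7 and 140.1 (PBS-perfused), at 72.6 and 82.3 (unperfused) and at 4.30 and 3.93 (injury-activated). It was highest in fixed cells and lowest after injury, with no overlap between these groups and the others, while the PBS-perfused and unperfused libraries overlapped. In RNA of sorted cells in bulk, fewer cells that carry a transcript and less of it per cell cannot be told apart. Against PFA-perfused cells, Notch3 fell by 2.12 ± 0.34 in PBS-perfused (limma adjusted p = 6.9e-04), by 2.39 ± 0.34 in unperfused (adjusted p = 1.9e-04) and by 6.32 ± 0.34 in injury-activated cells (adjusted p = 7.3e-07). After trimmed mean scaling these differences were -1.49, -1.19 and -5.55, and all 3 passed. From unperfused to injury-activated cells it fell by 3.94 ± 0.34 (limma adjusted p = 1.0e-05). Notch3 differed by -0.26 ± 0.34 between unperfused and PBS-perfused cells, which did not pass the test (limma adjusted p = 0.55) and was 0.30 after the scaling, and by -0.85 without PBS-perfused replicate 1, which did (limma adjusted p = 0.021).

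Notch2 had its highest level in unperfused cells. Its FPKM were 20.6 and 31.3 (PFA-perfused), 4.90 and 10.5 (PBS-perfused), 166 and 269 (unperfused) and 7.49 and 8.22 (injury-activated). The unperfused libraries lay above the other 6, and the PBS-perfused and injury-activated libraries overlapped. Unperfused cells rose by 3.01 ± 0.36 against PFA-perfused (limma adjusted p = 6.5e-05) and by 4.69 ± 0.36 against PBS-perfused cells (adjusted p = 1.6e-05), and injury-activated cells fell by 4.58 ± 0.36 against unperfused cells (adjusted p = 6.2e-06). PBS-perfused cells fell by 1.68 ± 0.36 and injury-activated cells by 1.58 ± 0.36 against PFA-perfused cells (limma adjusted p = 0.0032 and 0.0034), and neither fall passed after trimmed mean scaling (-1.07 and -0.82).

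Notch1, whose active form is known to keep Pax7 on in satellite cells, declined in smaller steps. It stood at 61.2 and 82.9 FPKM (PFA-perfused), 17.0 and 38.4 (PBS-perfused), 20.3 and 21.8 (unperfused) and 10.01 and 9.60 (injury-activated). The PFA-perfused libraries were above all others, the injury-activated below all others, and the unperfused libraries lay between both PBS-perfused ones. Notch1 fell against PFA-perfused cells by 1.44 ± 0.34 in PBS-perfused (limma adjusted p = 0.0052), by 1.71 ± 0.34 in unperfused (adjusted p = 0.0014) and by 2.74 ± 0.34 in injury-activated cells (adjusted p = 7.7e-05). After trimmed mean scaling the first difference was -0.81 and the second -0.54, and neither passed. The fall of 1.03 ± 0.34 from unperfused to injury-activated cells (limma adjusted p = 0.023) was lost without any 1 of the 4 libraries compared (-0.98 to -1.07). The difference from PBS-perfused to injury-activated cells was -1.30 ± 0.34 (limma adjusted p = 0.0070) and -0.73 without PBS-perfused replicate 2. Without PBS-perfused replicate 1, the difference between PBS-perfused and PFA-perfused cells was -0.87, and the one between unperfused and PBS-perfused cells, -0.27 ± 0.34 with all libraries and 0.27 after the scaling, was -0.84 and passed (limma adjusted p = 0.028).

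**Figure D1:**
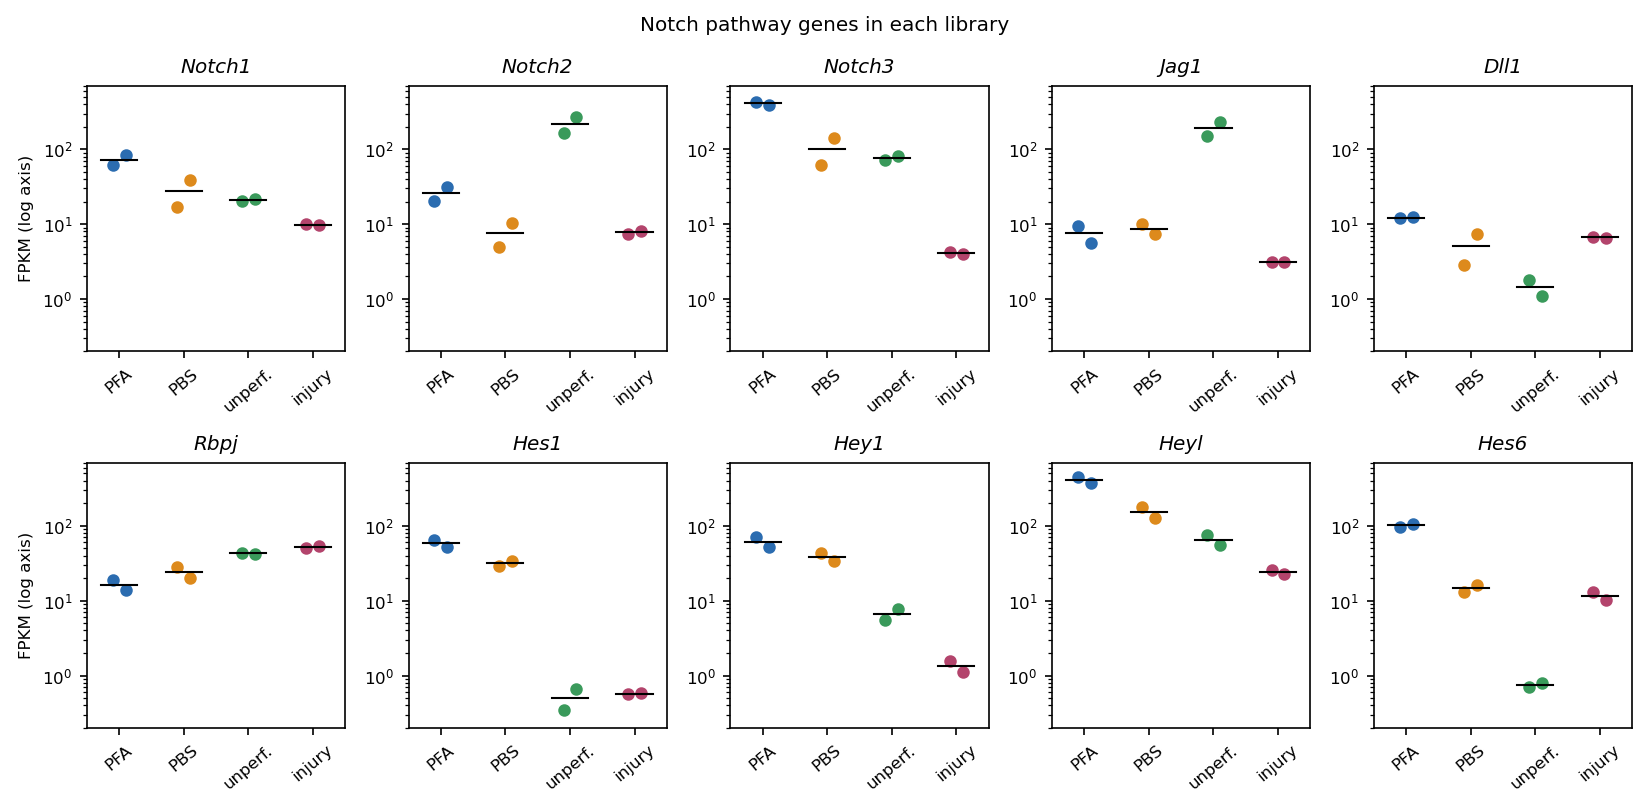
FPKM of the 10 genes on a log axis in the 2 libraries of each group (points, replicate 1 left of replicate 2) with the group mean (line). Notch2 and Jag1 are highest in the unperfused libraries, Rbpj in the injury-activated libraries, and the other 7 genes in the PFA-perfused libraries.

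Shares within a library do not depend on a scaling factor, and they showed a change of the leading receptor. Notch3 made up 83.7 and 77.0% of the summed FPKM of Notch1 to Notch4 in the PFA-perfused and 73.0 and 73.4% in the PBS-perfused libraries. In the unperfused libraries Notch2 was the main receptor, with 64.1 and 72.1%, and Notch3 held 28.03 and 22.1%. In the injury-activated libraries Notch1 led with 45.9 and 44.1%, ahead of Notch2 with 34.4 and 37.8% and Notch3 with 19.7 and 18.1%. The summed FPKM of the 4 receptors was 518 and 501 (PFA-perfused), 84.5 and 191 (PBS-perfused), 259 and 373 (unperfused) and 21.81 and 21.77 (injury-activated). This sum was lowest after injury with and without scaling, but which group was highest depended on it. After trimmed mean scaling the sum was 314 and 331 (PFA-perfused), 81.9 and 191 (PBS-perfused), 337 and 610.5 (unperfused) and 23.5 and 24.5 (injury-activated), with the unperfused libraries highest. Notch4, a receptor of endothelium, contributed at most 1.15% (PBS-perfused replicate 1).

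**Figure D2:**
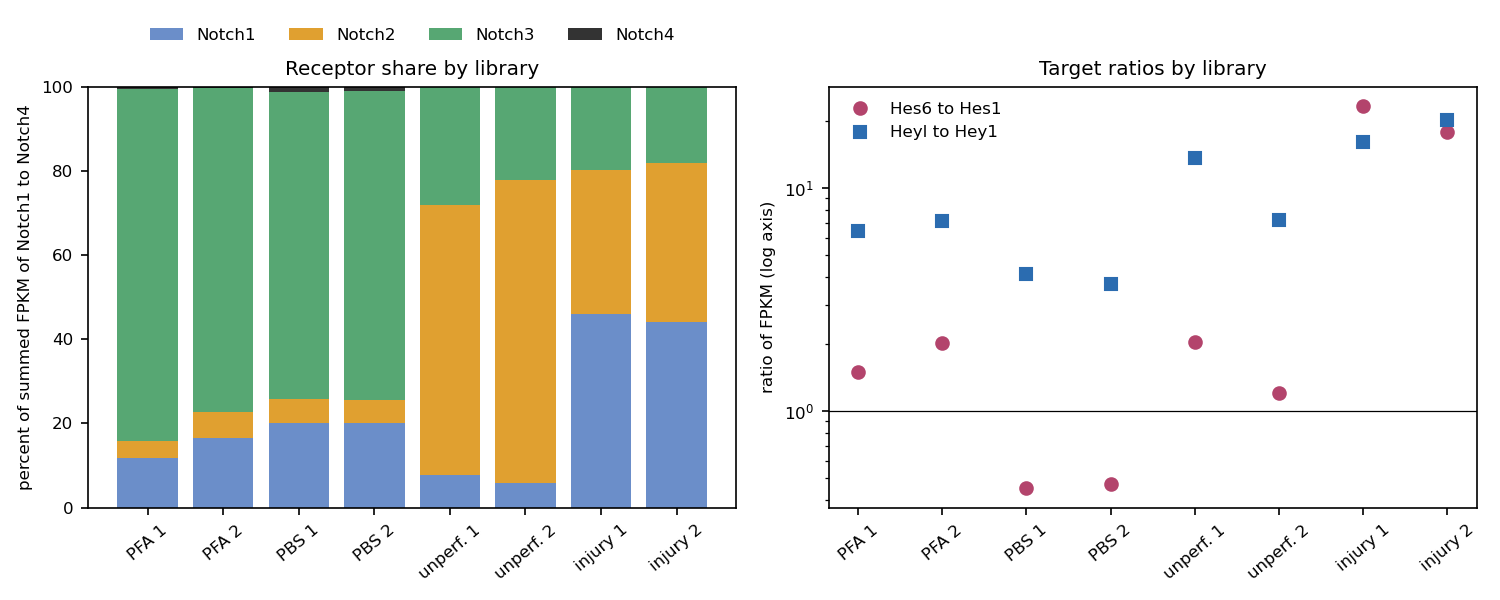
Left, the share of each receptor in the summed FPKM of Notch1 to Notch4 per library (percent, stacked bars); right, the ratio of Hes6 to Hes1 and of Heyl to Hey1 FPKM per library (log axis, line at 1). Notch3 holds over 70% of the bars of the PFA-perfused and PBS-perfused libraries, Notch2 over 60% in the unperfused ones, and the Hes6 to Hes1 ratio is below 1 in the PBS-perfused libraries alone.

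The ligands moved apart in unperfused cells. Jag1, a ligand of the Serrate type, was at 9.46 and 5.65 FPKM (PFA-perfused), 10.02 and 7.27 (PBS-perfused), 151 and 234 (unperfused) and 3.087 and 3.079 (injury-activated). The unperfused libraries were above the other 6, the injury-activated below them, and the PFA-perfused and PBS-perfused libraries overlapped. Jag1 rose in unperfused cells by 4.50 ± 0.30 against PFA-perfused (limma adjusted p = 2.6e-06) and by 4.31 ± 0.30 against PBS-perfused cells (adjusted p = 9.4e-06), and fell by 5.53 ± 0.30 from unperfused to injury-activated cells (adjusted p = 1.0e-06). Its fall of 1.03 ± 0.30 from PFA-perfused to injury-activated cells (limma adjusted p = 0.011) was -0.36 and not called after trimmed mean scaling, and -0.70 and not called without PFA-perfused replicate 1.

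Dll1, a ligand of the Delta type that activated myogenic cells are known to carry, had the reverse order in unperfused cells. Its FPKM were 11.99 and 12.3 (PFA-perfused), 2.87 and 7.38 (PBS-perfused), 1.78 and 1.09 (unperfused) and 6.80 and 6.51 (injury-activated). The unperfused libraries were the lowest and the injury-activated libraries fell within the range of the PBS-perfused ones. Dll1 fell by 2.45 ± 0.33 from PFA-perfused to unperfused cells (limma adjusted p = 1.3e-04) and rose by 1.67 ± 0.33 from unperfused to injury-activated cells (adjusted p = 0.0015), against the direction of Jag1. The fall of 1.21 ± 0.33 from PFA-perfused to PBS-perfused cells (limma adjusted p = 0.011) was -0.65 without PBS-perfused replicate 1 and -0.62 and not called after trimmed mean scaling. The difference of -1.24 ± 0.33 between unperfused and PBS-perfused cells (limma adjusted p = 0.012) was -0.69 without PBS-perfused replicate 2, and was not called without unperfused replicate 2 (-1.04) or after trimmed mean scaling (-0.89). Injury-activated cells did not pass against PBS-perfused cells (0.43 ± 0.33) with all libraries and passed without PBS-perfused replicate 2 (0.98). They did not pass against PFA-perfused cells (-0.78 ± 0.33, limma adjusted p = 0.057), but did when PBS-perfused replicate 1 or replicate 2 was left out, at the same difference of -0.78.

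The PBS-perfused libraries stood apart from each other for the receptors and Dll1. Replicate 2 was 2.27 times replicate 1 for Notch1 and Notch3, 2.14 times for Notch2 and 2.57 times for Dll1. It was 0.71 times replicate 1 for Rbpj and Heyl, 0.73 for Jag1 and 0.79 for Hey1. The ratios of the injury-activated libraries lay closer to 1, with the higher at most 1.40 times the lower (Hey1).

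Rbpj, the nuclear partner of the cut receptor, went against Notch1 and Notch3 and was lowest in fixed cells. It stood at 18.6 and 13.7 FPKM (PFA-perfused), 28.5 and 20.2 (PBS-perfused), 43.5 and 41.7 (unperfused) and 50.6 and 53.5 (injury-activated). No group overlapped another. Rbpj rose by 1.36 ± 0.24 in unperfused and by 1.64 ± 0.24 in injury-activated against PFA-perfused cells (limma adjusted p = 6.6e-04 and 2.1e-04), and by 2.51 and 2.39 after trimmed mean scaling. The step from PFA-perfused to PBS-perfused cells was 0.56 ± 0.24 and not called (limma adjusted p = 0.067). It was called after trimmed mean scaling (1.15), with the replicate number as a block (0.56, adjusted p = 0.048) and without PBS-perfused replicate 2 (0.80). The step from PBS-perfused to unperfused cells was 0.80 ± 0.24 (limma adjusted p = 0.021), and was not called without PBS-perfused replicate 2 (0.56), unperfused replicate 1 (0.77) or unperfused replicate 2 (0.83), nor when only these 2 groups were fitted. Injury-activated differed from unperfused cells by 0.28 ± 0.24, which did not pass, and by -0.12 after the scaling, so the order of these groups turned.

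The letters before the transcription starts are shown for the 3 genes that were higher in unperfused than in PFA-perfused cells (Rbpj, Notch2 and Jag1) and, beside them, for Notch3, the main receptor of the perfused groups. The reference promoters of RefSeq (build GRCm38.p6; the processing notes name mm9) held 7 of the 10 genes. They were searched for the core that Rbpj binds, TGGGAA on either strand (TTCCCA as printed on the other), in the 250 bases before the start. Hes1, Hey1 and Heyl had no entry. Of the 7 genes, Rbpj itself held the core, at 149 and 65 bases before its most upstream start, and 21.6% of 32851 promoter entries held at least 1. A match is a description of the letters, not a binding site. The sequences read 5′ to 3′, and capitals mark the core. They lie at chr5:53590096-53590345, plus strand (Rbpj), chr3:98013288-98013537, plus strand (Notch2), chr2:137116521-137116770, minus strand (Jag1) and chr17:32166891-32167140, minus strand (Notch3).
Rbpj: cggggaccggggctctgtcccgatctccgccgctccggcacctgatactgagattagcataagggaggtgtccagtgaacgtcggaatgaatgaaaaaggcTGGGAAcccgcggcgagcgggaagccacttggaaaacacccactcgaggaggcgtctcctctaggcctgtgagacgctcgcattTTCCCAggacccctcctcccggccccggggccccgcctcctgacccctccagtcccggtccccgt
Notch2: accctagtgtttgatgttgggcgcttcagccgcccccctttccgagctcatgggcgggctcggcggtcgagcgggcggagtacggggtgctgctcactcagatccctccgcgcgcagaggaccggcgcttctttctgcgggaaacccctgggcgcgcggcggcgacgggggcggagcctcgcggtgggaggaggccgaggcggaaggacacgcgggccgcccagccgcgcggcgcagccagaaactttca
Jag1: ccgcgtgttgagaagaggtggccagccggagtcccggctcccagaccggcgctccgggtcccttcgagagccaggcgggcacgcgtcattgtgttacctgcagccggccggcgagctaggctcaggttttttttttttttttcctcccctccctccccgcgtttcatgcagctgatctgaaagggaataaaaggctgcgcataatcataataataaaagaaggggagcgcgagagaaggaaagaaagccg
Notch3: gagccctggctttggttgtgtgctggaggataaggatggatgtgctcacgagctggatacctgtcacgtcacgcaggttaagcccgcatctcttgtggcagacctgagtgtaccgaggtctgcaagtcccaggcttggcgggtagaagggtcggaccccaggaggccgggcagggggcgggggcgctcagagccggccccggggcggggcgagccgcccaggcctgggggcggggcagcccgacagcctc
The dinucleotide CG occurred 34 times in the Notch2 stretch, 21 times in that of Rbpj, 20 in that of Jag1 and 17 in that of Notch3, against a median of 6 over all entries. The entries of Notch1 (16), Dll1 (13 and 21) and Hes6 (12 and 17) lay above that median too.

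The 4 Hes and Hey genes were all highest in fixed cells. Hes1, the best known Notch target and a repressor of differentiation genes, was at 64.9 and 51.9 FPKM (PFA-perfused), 29.3 and 34.3 (PBS-perfused), 0.341 and 0.666 (unperfused) and 0.559 and 0.578 (injury-activated). The 4 libraries of perfused Pax7-nGFP animals were all above 29 FPKM and the 4 of unperfused wild type animals all below 1. Hes1 fell from PBS-perfused to unperfused cells by 4.45 ± 0.21 (limma adjusted p = 2.1e-06) and from PFA-perfused to injury-activated cells by 5.23 ± 0.21 (adjusted p = 3.1e-07). Unperfused and injury-activated cells differed by 0.07 ± 0.21 (limma adjusted p = 0.79) at levels under 1 FPKM, where a pseudocount of 1 hides changes. The fall of 0.85 ± 0.21 from PFA-perfused to PBS-perfused cells (limma adjusted p = 0.0067) was -0.23 and not called after trimmed mean scaling.

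Hey1, which together with Heyl is required to keep satellite cells undifferentiated, stood at 70.5 and 52.8 FPKM (PFA-perfused), 43.2 and 34.2 (PBS-perfused), 5.50 and 7.77 (unperfused) and 1.58 and 1.12 (injury-activated). The 4 groups did not overlap. Hey1 fell from PBS-perfused to unperfused cells by 2.39 ± 0.25 (limma adjusted p = 7.8e-05) and from unperfused to injury-activated cells by 1.69 ± 0.25 (adjusted p = 2.4e-04). The fall from PFA-perfused to PBS-perfused cells (-0.65 ± 0.25, limma adjusted p = 0.044) had the highest adjusted p of the 50 calls. It was lost in 11 of 17 alternatives, among them those without PFA-perfused replicate 1 (-0.45), PBS-perfused replicate 2 (-0.49) or either injury-activated library (-0.65), and was -0.026 after trimmed mean scaling.

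Heyl, a related repressor, had the highest level of the 4 Hes and Hey genes in every library. Its FPKM were 450 and 375 (PFA-perfused), 178 and 127 (PBS-perfused), 74.8 and 56.1 (unperfused) and 25.4 and 22.7 (injury-activated). The 4 groups formed a descending series without overlap, and each neighbouring step was called. The steps fell by 1.44 ± 0.26 (limma adjusted p = 0.0013), by 1.20 ± 0.26 (adjusted p = 0.0046) and by 1.39 ± 0.26 (adjusted p = 0.0011), and were -0.81, -0.64 and -1.80 after trimmed mean scaling. All 6 pairwise differences of Heyl were also called in each of the 17 alternatives of scaling, filter, pseudocount, fit or library left out.

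Hes6, a family member that binds Hes1 and opposes its repression, was not ordered like the other 3. It was at 97.3 and 105 FPKM (PFA-perfused), 13.2 and 16.1 (PBS-perfused), 0.693 and 0.801 (unperfused) and 13.0 and 10.3 (injury-activated). Fixed cells were far above the rest, and the injury-activated libraries lay just below the PBS-perfused ones, without overlap. Hes6 fell by 2.72 ± 0.21 from PFA-perfused to PBS-perfused cells (limma adjusted p = 2.2e-05) and by 3.16 ± 0.21 from PBS-perfused to unperfused cells (adjusted p = 7.2e-06), then rose by 2.85 ± 0.21 from unperfused to injury-activated cells (adjusted p = 3.8e-06). Injury-activated against PBS-perfused cells (-0.31 ± 0.21) did not pass.

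Within libraries, the ratio of Hes6 to Hes1 FPKM was 1.499 and 2.03 (PFA-perfused), 0.450 and 0.469 (PBS-perfused), 2.03 and 1.20 (unperfused) and 23.3 and 17.8 (injury-activated). It was highest after injury, with Hes1 under 1 FPKM there and in the unperfused libraries. The ratio of Heyl to Hey1 was 6.39 and 7.11 (PFA-perfused), 4.12 and 3.71 (PBS-perfused), 13.6 and 7.22 (unperfused), 16.1 and 20.2 (injury-activated). Heyl exceeded Hey1 in all 8 libraries. Groups of 2 allow no exact test of these ratios under 0.05, so they are given as descriptions.

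**Figure D3:**
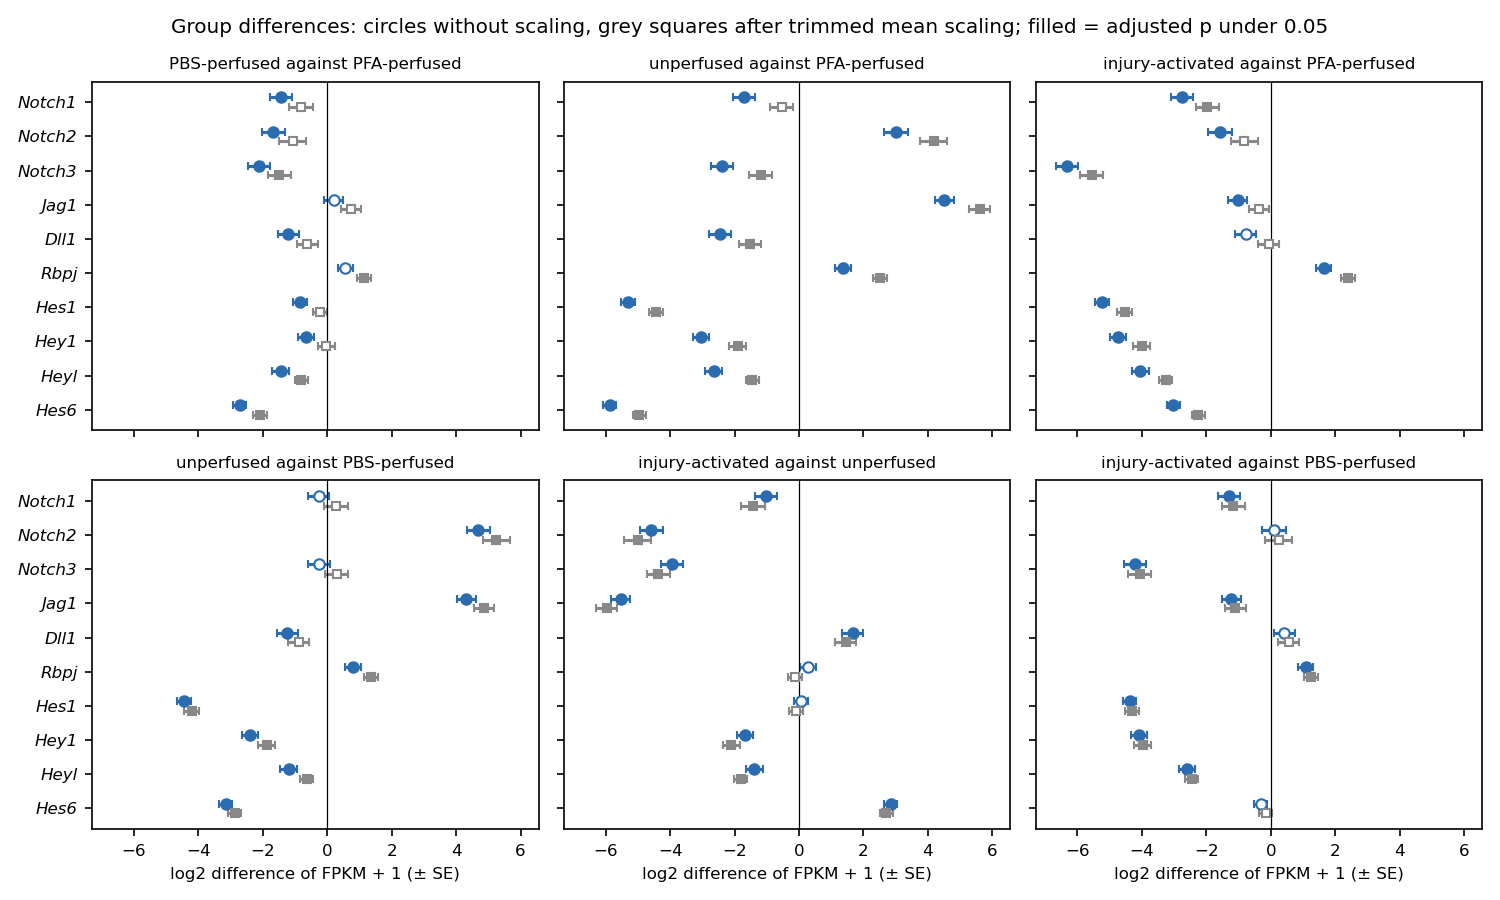
Log2 differences of FPKM + 1 (± SE) of the 10 genes in 6 comparisons, without scaling (blue circles) and after trimmed mean scaling (grey squares), filled where the limma adjusted p is under 0.05. Notch2 and Jag1 lie far right in unperfused against PFA-perfused and against PBS-perfused cells and far left in injury-activated against unperfused cells.

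The calls over the 10 genes are read against the share of all tested genes called in the same comparison. Buffer perfusion without fixation against fixation left 0 genes higher (17.8% of all tested genes were) and 8 lower (46.2%). The exceptions were Jag1 and Rbpj. The median difference of the 10 was -1.32 against -0.50 over all genes. After trimmed mean scaling 1 was higher (29.2% of all) and 3 were lower (24.7%), namely Rbpj higher and Notch3, Heyl (-0.81) and Hes6 (-2.08) lower. With the replicate number as a block 1 was higher, Rbpj. Of all calls in this comparison 27.8% were higher without and 54.1% with the scaling.

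In unperfused against PFA-perfused cells, all 10 genes were called, with Notch2, Jag1 and Rbpj higher and 7 lower (17.4 and 56.3% of all tested genes; medians -2.42 and -0.81). The differences of Hes6 (-5.87 ± 0.21), Hes1 (-5.30 ± 0.21), Hey1 (-3.04 ± 0.25) and Heyl (-2.65 ± 0.26) were below that of any receptor. After trimmed mean scaling 3 were higher and 6 lower (37.0 and 31.0%). The scaled differences were 4.18 for Notch2, 5.61 for Jag1, -1.52 for Dll1, -4.44 for Hes1, -1.90 for Hey1, -1.45 for Heyl and -4.96 for Hes6, and the share of all calls that were higher went from 23.6 to 54.4%. In injury-activated against PFA-perfused cells, Rbpj was higher and 8 were lower (26.1 and 47.3%; medians -2.88 and -0.48). After the scaling 1 was higher and 6 were lower (40.2 and 32.1%), with scaled differences of -1.97 for Notch1, -4.54 for Hes1, -4.0009 for Hey1, -3.25 for Heyl and -2.24 for Hes6, and with 35.6 and then 55.6% of all calls higher. Hey1 (-4.73 ± 0.25), Heyl (-4.04 ± 0.26) and Hes6 (-3.02 ± 0.21) were among the lower genes. These 3 comparisons share the PFA-perfused libraries. Unperfused against PBS-perfused cells had Notch2, Jag1 and Rbpj higher and 5 lower (13.1 and 36.5%; medians -0.74 and -0.36), the lower genes being Dll1, Hes1, Hey1, Heyl and Hes6. After the scaling 3 were higher and 4 lower (25.3 and 23.0%), with 26.5 and then 52.4% of all calls higher.

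Injury-activated against unperfused cells had Dll1 and Hes6 higher and 6 lower (40.8 and 29.3%; medians -1.21 and 0.17), among them all 3 receptors. After the scaling the counts were again 2 and 6 (36.5 and 37.6%). Injury-activated against PBS-perfused cells had Rbpj higher and 6 lower (34.4 and 38.8%; medians -1.26 and -0.11), and the counts were the same after the scaling (38.5 and 37.0%). The lower genes were Hes1 (-4.38 ± 0.21), Notch3 (-4.20 ± 0.34), Hey1 (-4.07 ± 0.25), Heyl (-2.60 ± 0.26), Notch1 and Jag1 (-1.23 ± 0.30).

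Of the rest of the pathway, 72 genes were listed and 58 tested. The counts below are for tested genes other than the 10, beside the shares of all tested genes called in the same comparison. From PFA-perfused to PBS-perfused cells 5 rose and 29 fell, with a median of -0.69 (17.8 and 46.2% of all tested genes). After trimmed mean scaling these counts were 9 and 21 (29.2 and 24.7%). From PFA-perfused to unperfused cells 9 rose and 37 fell, median -1.13 (17.4 and 56.3%), and 17 and 17 after the scaling (37.0 and 31.0%). From PFA-perfused to injury-activated cells 7 rose and 40 fell, median -1.41 (26.1 and 47.3%), and 11 and 33 after the scaling (40.2 and 32.1%). From PBS-perfused to unperfused cells 8 rose and 22 fell, median -0.22 (13.1 and 36.5%), and 22 and 15 after the scaling (25.3 and 23.0%). From unperfused to injury-activated cells 14 rose and 28 fell, median -0.46 (40.8 and 29.3%), and 9 and 30 after the scaling (36.5 and 37.6%). From PBS-perfused to injury-activated cells 11 rose and 33 fell, median -1.13 (34.4 and 38.8%), and 12 and 33 after the scaling (38.5 and 37.0%).

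From PBS-perfused to unperfused cells, 13.1% of all tested genes rose and 36.5% fell. Of 8 nuclear co-activators 2 rose and 2 fell, and of 5 ubiquitin ligases of ligands 1 rose and 3 fell. Of 10 proteases that cut the receptor 2 rose and 0 fell. After trimmed mean scaling 25.3% of all tested genes rose and 23.0% fell. With it 4 co-activators rose and 1 fell, 1 ligase rose and 3 fell, and 7 proteases rose and 0 fell. Maml2, a co-activator that binds the complex of Rbpj and the receptor domain, went from 3.16 and 1.87 FPKM in the PBS-perfused to a mean of 62.2 ± 17.3 (SD, n = 2) in the unperfused libraries, a rise of 4.17 ± 0.26 (limma adjusted p = 5.2e-06). Adam10, the protease of the first ligand-dependent cut, rose by 2.80 ± 0.36 (adjusted p = 2.5e-04) from 34.8 and 14.8 to 156 and 174 FPKM. Mib1, the ubiquitin ligase that makes ligands active by endocytosis, rose by 1.80 ± 0.22 (adjusted p = 2.1e-04). After injury all 3 were lower again than in unperfused cells, Maml2 by a difference of -3.86 ± 0.26, Mib1 of -3.04 ± 0.22 and Adam10 of -1.54 ± 0.36.

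Falling genes came from several roles. The glycosyltransferase Rfng, which modifies the receptors, went from 37.5 and 35.6 FPKM in PFA-perfused to 1.16 and 2.39 in unperfused and 1.35 and 1.29 in injury-activated libraries (-3.79 ± 0.25 for unperfused against PFA-perfused). Neurl1a, a ubiquitin ligase of ligands, fell by 3.87 ± 0.36 from PFA-perfused to unperfused cells. Dtx4, a ubiquitin ligase of the Deltex family, fell by 2.64 ± 0.29 from PFA-perfused to PBS-perfused cells. Among 13 tested co-repressors, 11 fell and 1 rose from PFA-perfused to injury-activated cells (47.3 and 26.1% of all tested genes). The riser was the histone deacetylase Hdac1 (1.81 ± 0.25). After trimmed mean scaling 10 co-repressors fell and 1 rose (32.1 and 40.2%). Nedd4, a ubiquitin ligase that acts on many receptors, rose by 2.05 ± 0.37 and Poglut1, which adds glucose to the receptors, by 2.09 ± 0.20 from unperfused to injury-activated cells. Numb, an inhibitor of Notch passed on unequally in some divisions, was lower after injury than in unperfused cells (-1.36 ± 0.33).

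Against unperfused cells, genes of satellite cells listed as downstream of Rbpj were lower after injury, as were Hey1 and Heyl but not Hes1 or Hes6. Hes1 was under 1 FPKM in both of these groups. Against PFA-perfused cells, Hes1 (-5.23 ± 0.21) and Hes6 (-3.02 ± 0.21) were lower after injury as well. All 6 listed (Pax7, Calcr, Col5a1, Col5a3, Col6a1 and Col6a2) were lower in injury-activated than in unperfused cells (29.3% of all tested genes were). The 6 had a median of -2.49, against 0.17 over all tested genes. After trimmed mean scaling all 6 were lower as well (37.6% of all). Calcr, the calcitonin receptor of quiescent satellite cells, went from 19.9 and 27.2 to 0.682 and 0.548 FPKM (-3.91 ± 0.34), and Col5a3, a collagen V chain, from 30.9 and 38.1 to 1.74 and 1.24 (-3.83 ± 0.21). In unperfused against PFA-perfused cells all 6 were lower (56.3% of all tested genes were), and 3 after trimmed mean scaling (31.0%). Col5a3 went from -1.004 to 0.18 there with the scaling. The fall of Calcr there was -1.45 ± 0.34, -0.28 and not called after this scaling, and -0.91 without PFA-perfused replicate 1.

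**Figure D4:**
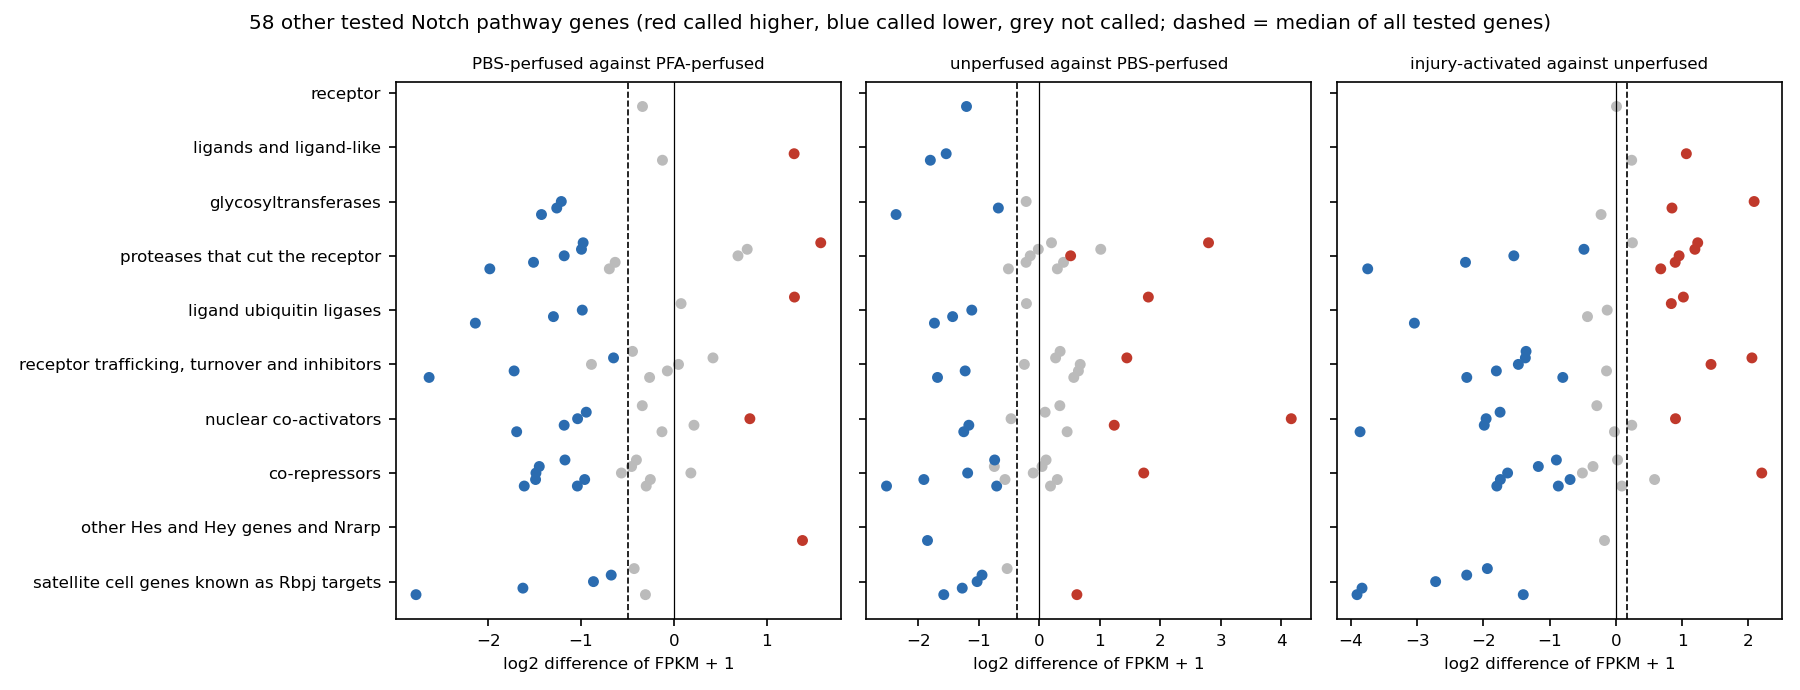
Log2 differences of FPKM + 1 of the other tested pathway genes by role, in 3 comparisons of neighbouring groups (points; red called higher, blue called lower, grey not called; dashed line, median of all tested genes). The point furthest right in unperfused against PBS-perfused cells is Maml2 at 4.17, and all 6 satellite cell targets lie left of 0 in injury-activated against unperfused cells.

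Members of the families that other cells use were near the floor. Hey2 was at most 0.777 FPKM, Hes5 at most 0.133 and Lfng at most 1.295 in any library. Dll4 and Nrarp, genes prominent in endothelium, were highest in the PBS-perfused libraries, Dll4 at 1.65 and 3.67 FPKM and Nrarp at 1.88 and 5.48, and both rose against PFA-perfused cells (1.295 ± 0.24 and 1.38 ± 0.31, limma adjusted p = 0.0014 and 0.0038). Endothelial markers were higher there too. Of 12 listed, 11 were tested and 10 rose from PFA-perfused to PBS-perfused cells (17.8% of all tested genes did). After trimmed mean scaling 10 rose as well (29.2% of all). The summed FPKM of the 12 was 170 to 270 (PBS-perfused), 62.3 to 69.5 (PFA-perfused), 28.9 to 41.6 (unperfused) and 8.04 to 8.68 (injury-activated). The CD31 gene Pecam1 stood at 33.9 and 19.7 FPKM in the PBS-perfused and at 3.13 and 1.25 in the PFA-perfused libraries. The part of such cells in Dll4, Nrarp or the 10 genes was not tested.

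Mural cells, which carry Notch3 and Heyl in vessels, were checked with 10 markers. Their summed FPKM was 188 to 263 (PFA-perfused), 160 to 188 (PBS-perfused), 66.0 to 108 (unperfused) and 47.6 to 57.1 (injury-activated). From PFA-perfused to PBS-perfused cells 4 of the 10 rose and 2 fell (17.8 and 46.2% of all tested genes). After trimmed mean scaling 5 rose and 0 fell (29.2 and 24.7%). From PFA-perfused to injury-activated cells 1 rose and 7 fell (26.1 and 47.3%), and 1 and 5 after the scaling (40.2 and 32.1%). Notch3 and Heyl were highest in the PFA-perfused and lowest in the injury-activated libraries. The mural sum was also lowest after injury, but PFA-perfused replicate 2 (188.3) and PBS-perfused replicate 1 (188.4) were level. Acta2, smooth muscle actin, was among the 2 that fell without scaling. It had 127.6 and 104.6 FPKM in the PFA-perfused and 44.9 and 52.9 in the PBS-perfused libraries. Tagln, another smooth muscle gene (115.3 and 46.3, then 67.7 and 63.2), and Abcc9, a potassium channel subunit of pericytes (11.2 and 25.4, then 12.4 and 12.6), did not pass. The pericyte marker Rgs5 was among the 4 that rose, at 2.68 and 2.02 FPKM (PFA-perfused), 46.3 and 17.0 (PBS-perfused), 11.3 and 11.4 (unperfused) and 0.352 and 0.219 (injury-activated). The part of mural cells in Notch3 and Heyl was not tested. The summed FPKM of 8 satellite cell markers was 1822 to 1952, 3698 to 4010, 29884 to 43263 and 1431 to 1459 in the same order of groups, with Sdc4 alone at 28149 and 40318 in unperfused cells. Pax7, the defining factor, was at 328 and 567 FPKM (PFA-perfused), 48.3 and 79.6 (PBS-perfused), 19.8 and 20.4 (unperfused), 4.59 and 4.40 (injury-activated). All 8 satellite cell markers were above 0 in every library, though Chrdl2 was at 0.261 and 0.125 FPKM in the injury-activated ones. Summed fibro-adipogenic markers (8 genes) ran from 59.6 to 651, haematopoietic (8) from 8.68 to 66.5 and muscle differentiation markers (7 of 9 listed) from 22.0 to 278, the last highest after injury.

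**Figure D5:**
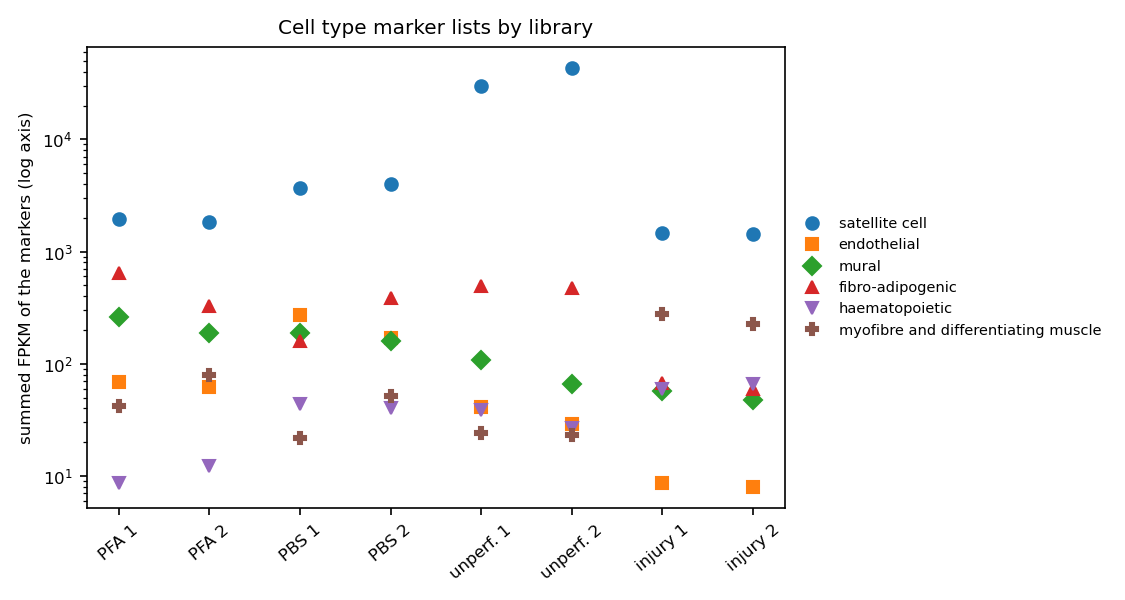
Summed FPKM of 6 marker lists in each of the 8 libraries (log axis; points, 1 per list and library). Endothelial markers peak in the PBS-perfused libraries at 170 to 270, and satellite cell markers lie above all other lists in every library.

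Transcript length moved with the differences in unperfused cells. Against PFA-perfused cells, the median difference was -1.37 for genes with a longest transcript under 1500 bases, -1.11 from 1500 to 3000, -0.59 from 3000 to 6000 and -0.33 above 6000 bases. The Hes1 and Hes6 transcripts measure 1468 and 1573 bases, those of Jag1 5612 and of the receptors 8016 to 10500. After a correction for GC content and length, chosen after the data had been seen, the differences against PFA-perfused cells were -4.16 for Hes1, -3.93 for Hes6, 4.71 for Jag1, 3.4001 for Notch2 and -1.53 for Notch3, and all 5 were called. The correction brought the difference of Notch1 between injury-activated and unperfused cells from -1.03 to 0.027, and that between injury-activated and PBS-perfused cells from -1.30 to -0.23. It also turned 2 differences that had not passed into calls of the other sign, Hes1 between injury-activated and unperfused cells (-0.96) and Hes6 between injury-activated and PBS-perfused cells (0.52).

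The genes most like each member in shape were sought among 7752 others with a mean of at least 5 FPKM, by the root mean square difference between log2 values centred over the 8 libraries. Notch2 was nearest to Cdkn1b, the cyclin-dependent kinase inhibitor p27, at 0.25. Cdkn1b stood at 7.61 and 9.66 FPKM (PFA-perfused), 1.88 and 3.36 (PBS-perfused), 57.1 and 127 (unperfused) and 3.26 and 3.97 (injury-activated). Dll1 was nearest to Rplp2-ps1 (0.13), which as a pseudogene may share reads with its parent, and then to the ribosomal protein genes Rps15 and Rps7 (both 0.22). Heyl was nearest to the transcription factor gene Klf15 (0.19), Hey1 to Fam124a (0.18), Notch3 to Fxyd1 (0.40), Hes1 to Ppp1r14a (0.30), Rbpj to Morf4l1 (0.091), Notch1 to Sipa1l3 (0.19), Jag1 to B230216N24Rik (0.32) and Hes6 to H1f0 (0.46). The distance depends on how far a gene varies, so it does not rank the 10 genes.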

How the data were processed

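RNA sequencing of sorted satellite cells was used in 8 libraries. A single table of genes by libraries was deposited by the authors, with no unit in its header. Its deposited values were taken as FPKM, because they hold decimals, have totals that differ between libraries, and fit what StringTie reports. The submitters' processing notes name STAR 2.5.3a, StringTie 1.3.3, R 3.4.1 and mm9, without roles. Strand use in counting is not given in the sources used here, so overlapping genes on opposite strands may share reads.

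Values were used as log2(FPKM + 1). Symbols with 1 FPKM or more in 2 or more libraries entered 1 linear model with the variance trend (limma 3.58.1, R 4.3.3), tested on simulated data beforehand. The 6 pairwise contrasts of 4 groups were tested. As alternatives, the replicate number was a block; others were fitting the 2 compared groups alone, no filter, a filter of 5 FPKM, a pseudocount of 0.1, trimmed mean scaling (trims 0.3 and 0.05), quantile normalization and each library left out. A correction for GC content and length (natural splines, 5 degrees of freedom; GENCODE M21 on GRCm38, matched by symbol for 96.4% of tested genes) and an average of both injury-activated libraries were added after seeing the data. A group left with 1 library is assumed to scatter like the rest.

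The 10 genes and the lists were chosen with earlier results of these data known. Other pathway genes were named as anchors, or as up to 3 called genes per direction and comparison, by size, if their higher group averaged 5 FPKM or more and no libraries overlapped. The rest of the list enters the counts, and some genes that met this rule are not reported here. Nearest genes were taken by smallest distance.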

Additional observations from a re-analysis of the deposited data

How the results depend on the processing

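Of 60 pairwise comparisons of the 10 genes, 50 were called, 38 of these in all 17 alternatives, and 12 were lost in at least 1. Of the 10 not called, 7 were called in at least 1. The calls of Notch3, Heyl and Hes6 held in every alternative, and 1 of 5 calls of Notch1 did.

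The number of the 10 genes higher in PBS-perfused than in PFA-perfused cells, 0, was 1 with the replicate block, after trimmed mean scaling, after quantile normalization and after the correction for GC and length, and 0 to 1 with a library left out (1 without PBS-perfused replicate 2). The number lower, 8, was 3 after trimmed mean scaling. The number higher in injury-activated than in PBS-perfused cells, 1, was 2 after the GC and length correction and 1 to 2 with a library left out (2 without PBS-perfused replicate 2). No count of the 10 genes other than the first moved by over 1.5 times under the replicate block. Equal replicate numbers did not deviate together (r from -0.05 to 0.12 across genes, over 0.1 in 1 of 6 pairs of groups), so the numbers were not taken to pair the libraries.

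Among the other pathway genes, 5 higher in PBS-perfused than in PFA-perfused cells became 2 with a filter of 5 FPKM, 9 after trimmed mean scaling or quantile normalization, and 3 to 6 with a library left out (3 without PBS-perfused replicate 2). In unperfused against PFA-perfused cells, 9 higher became 17 after trimmed mean scaling, 15 after quantile normalization and 14 after the GC and length correction, and 37 lower became 17 after trimmed mean scaling. In injury-activated against PFA-perfused cells, 7 higher became 11 after trimmed mean scaling, 12 after the GC and length correction and 4 to 7 with a library left out (4 without PFA-perfused replicate 2). In unperfused against PBS-perfused cells, 8 higher became 22, 15 and 14 after trimmed mean scaling, quantile normalization and the GC and length correction. In injury-activated against unperfused cells, 14 higher became 9 after trimmed mean scaling and with the injury-activated libraries averaged, and 9 to 13 with a library left out (9 without unperfused replicate 2). The cause of these moves was not tested.

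The GC and length correction reversed Notch1 (0.027) and Hes1 (-0.96) in injury-activated against unperfused cells, Hes6 in injury-activated against PBS-perfused cells (0.52), Notch4 in injury-activated cells against PFA-perfused (0.43), unperfused (0.95) and PBS-perfused cells (0.15), Jag2 in injury-activated cells against PFA-perfused (1.25) and PBS-perfused cells (0.80), and Hdac1 (0.51) and Col5a3 (0.089) in unperfused against PFA-perfused cells. Trimmed mean scaling reversed Hdac1 (0.76), Nedd4 (0.89) and Col5a3 (0.18) in unperfused against PFA-perfused cells. Quantile normalization reversed Malat1 in PBS-perfused against PFA-perfused cells (0.91). Hes1 lies under 1 FPKM in both groups concerned and Notch4 in the injury-activated one. With 2 libraries a group and no counts, the depth behind these values is unknown.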
